A study of Homo sapiens with 60 samples.

Results

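The genes described here encode the proteins of the cytosolic ribosome. They were selected as protein-coding genes with a symbol made of RPL or RPS and a digit, together with RPSA, RPLP0, RPLP1 and RPLP2. The RPS6K kinases (10 genes), 8 paralogs with a symbol ending in L or L1, and 1069 genes not annotated as protein-coding were left out. Of 60675 genes in the deposited table, 83 met the rule. Among these, 79 encode ribosomal proteins, 46 of the large and 33 of the small subunit. The other members are 3 readthrough genes (RPL17-C18orf32, RPL36A-HNRNPH2 and RPS10-NUDT3) and RPS19BP1, which encodes a protein that binds RPS19. These 4 genes are described at the end. RPS4Y2 had no count in any of the 60 libraries, so that 78 of the 79 ribosomal protein genes passed the filter on low counts and were tested.

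Messenger RNA was sequenced from HepG2, an established line derived from a human hepatocellular carcinoma, after 24 h of exposure. The 57 treated libraries received 1 of 8 herbal extracts at 20 µg/mL (Low), 100 µg/mL (Medium) or 500 µg/mL (High), and the 3 vehicle libraries received DMSO. SDT (Sibjeondaebo-tang) and PMT (Palmul-tang) are water extracts of herbal formulas, and the other 6 were made with 70% ethanol. Their sources, with the short names used below, are Poria cocos (Poria), Atractylodis Rhizoma (Atractylodis), Glycyrrhizae Radix (Glycyrrhiza), Panax ginseng (Ginseng), Angelicae Gigantis Radix (Angelica) and Paeoniae Radix (Paeonia). SDT, Poria, Atractylodis, Glycyrrhiza and Ginseng have 3 libraries per dose, PMT has 2, and Angelica and Paeonia have 1 each. The vehicle is given as 0.1% DMSO on the sample labels and as 2% in the series text, and the DMSO content of the treated cultures is not given. All 60 titles carry the batch name BatchC. A set code in the descriptions reads C1 for vehicle. Both formulas carry 8, both Poria and Atractylodis 9, both Glycyrrhiza and Ginseng 10, and both Angelica and Paeonia 11. Vehicle therefore never shares a code with an extract, what the code marks is not stated, and an effect of treatment and an effect of the set cannot be told apart in any comparison with vehicle. High and Low of 1 extract do share a code. The labels do not say that replicates were separate cultures, so the p-values may cover technical spread only. The wortmannin control was not analysed here.

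Each ribosome needs 1 copy of nearly every ribosomal protein, and the genes are expressed at high levels in dividing cells. Their mRNAs are short, and most begin with a cytosine followed by a stretch of pyrimidines, the terminal oligopyrimidine (TOP) motif, through which the kinase mTORC1 and the protein LARP1 adjust their translation and stability. Sequencing of mRNA measures their abundance and not their translation.

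Start-site sequences of a chosen set of members called against vehicle are shown because the pyrimidine stretch is the feature these mRNAs are known for. The set is not a ranking by change, and every window shown has a run of 8 or more C or T. Members not shown include RPS29 (longest run 3, log2 fold change -0.90 in PMT Low) and RPL36 (run 7, -0.60 in SDT Low). RPL31 (run 12, -0.64 in SDT Low) and RPL35A (run 10, -0.65 in SDT Low) are also not shown. The windows run from 10 bases before to 18 bases after the RefSeq start site on GRCh38.p14, 5′ to 3′ on the transcribed strand, with the longest run of C or T in capitals. The members lower than vehicle are first, in their order in SDT Low.
RPS27A, chr2:55231893-55231920, plus strand: agtgacacacaagacccagaCTCTTCCC
RPS21, chr20:62387093-62387120, plus strand: ctagctgCTTCCTTTCTCTCTCgcgcgc
RPS12, chr6:132814559-132814586, plus strand: cggatgaggCCTCTTTCCCTgccgccgc
RPLP1, chr15:69452808-69452835, plus strand: ggcgcgagagCCCCTTTCCTCagctgcc
RPL9, chr4:39458905-39458932, minus strand: taatgacgacagacgTTCTTTCTTTgct
RPL39, chrX:119791613-119791640, minus strand: ccgccagCTTCCCTCCTCTTCCTTTCTC
RPSA, chr3:39406710-39406737, plus strand: tgccgcctgTCTTTTCCgtgctacctgc
The members higher than vehicle follow, and RPS26 stands last because it fell against vehicle in Glycyrrhiza High and rose in the High group of the other 5 replicated extracts.
RPS28, chr19:8321486-8321513, plus strand: gaagcacgtgaCTCCTCTCCgccagacc
RPL28, chr19:55385922-55385949, plus strand: cctcgCCTTCCTCTTTCCgtctcaggtc
RPL36A, chrX:101391001-101391028, plus strand: ctcgcggTTTCTTTCTTTCCgcgccgat
RPS26, chr12:56041908-56041935, plus strand: acataacctcgaTTTTCTTCCgccatcc
RefSeq start-site sequence was found for 64 of the 79 ribosomal protein genes. A run of 8 or more C or T on the transcribed strand lay in the window of 50 of them (78.1%), against 3257 of 27305 windows of all genes (11.9%). The run was present both in members below vehicle and in members above it. At SDT Low, 33 of the 50 tested members with the run were called lower and 4 higher, and 8 of the 13 tested members with a shorter run were called lower and 0 higher. Of the 15 tested members with no window, 7 were lower and 1 higher. Among all tested genes 17.6% were lower and 18.3% higher in this comparison.

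Total counts ran from 19057230 to 33233215 per library. The 13 hepatocyte and hepatoma markers all had a median of at least 1 CPM (counts scaled to a common library total, here without further scaling), and summed to between 53540 and 73370 CPM in treated libraries and between 68400 and 68840 CPM in vehicle libraries. Of 7 fibroblast markers, 1 reached that median, and the 7 summed to between 2.58 and 17.0 CPM in treated libraries and between 6.06 and 7.55 CPM in vehicle libraries. Of 7 leukocyte and endothelial markers, 3 reached that median. These 7 summed to between 853 and 1999 CPM in treated libraries and between 1228 and 1398 CPM in vehicle libraries, with the leukocyte marker PTPRC at 0 in every library. The mitochondrially encoded share of counts was 14.7% to 24.8% in treated libraries and 13.4% to 15.2% in vehicle libraries, with 55 of 57 treated libraries above all 3 vehicle libraries. Library 3 of Poria Low and library 1 of SDT Medium stood apart in the members' summed level, and results that rest on them are given with and without them.

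Summed over the 78 tested members, ribosomal protein mRNA had a lower mean than vehicle at all doses and for all 8 extracts. Most single treated libraries, though not all, lay below every vehicle library. The sum was 26460 CPM at the lowest, 31360 CPM at the median and 37910 CPM at the highest among the 57 treated libraries, against 35660, 36120 and 33050 CPM in the 3 vehicle libraries. In 50 treated libraries the sum lay below the lowest vehicle library and in 1, library 3 of Poria Low, above the highest. Within the vehicle range were libraries 2 and 3 of Poria High (33820 and 33750 CPM). Library 3 of PMT High, Atractylodis High, Glycyrrhiza Medium and Glycyrrhiza High also lay there (33280, 33270, 34010 and 33640 CPM). Levels here are CPM on library sizes scaled by the trimmed mean of M-values (TMM). Ranges overlapped between doses in each replicated extract. SDT averaged 29700 ± 1700 CPM at Low, 29500 ± 2780 at Medium and 31700 ± 1130 at High (SD, n = 3 each). Ginseng averaged 30500 ± 656, 31300 ± 357 and 31300 ± 1240 CPM at the same doses (SD, n = 3 each). PMT averaged 30500 ± 1190, 30900 ± 926 and 32000 ± 1750 CPM (SD, n = 2 each), and Atractylodis 30900 ± 1530, 31300 ± 629 and 32300 ± 983 CPM (SD, n = 3 each). The High mean was above the Low mean in these 4 extracts and in Poria. In Glycyrrhiza the High mean was below the Low mean (31900 and 32200 CPM). Vehicle averaged 34900 ± 1650 CPM (SD, n = 3). Poria Low averaged 32700 ± 4610 CPM (SD, n = 3), a log2 ratio to vehicle of -0.10, and without library 3 the ratio was -0.22. SDT Medium had a ratio of -0.24, and -0.17 without library 1. In bulk RNA, a smaller share of cells with high levels of these mRNAs and less of them in every cell cannot be told apart. A share of counts also falls where other mRNAs rise. With mitochondrial transcripts left out of the total, members held 3.27% to 4.66% of nuclear counts in treated libraries and 4.12% to 4.51% in vehicle libraries, with 54 of 57 treated libraries below all 3 vehicle libraries.

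**Figure D1:**
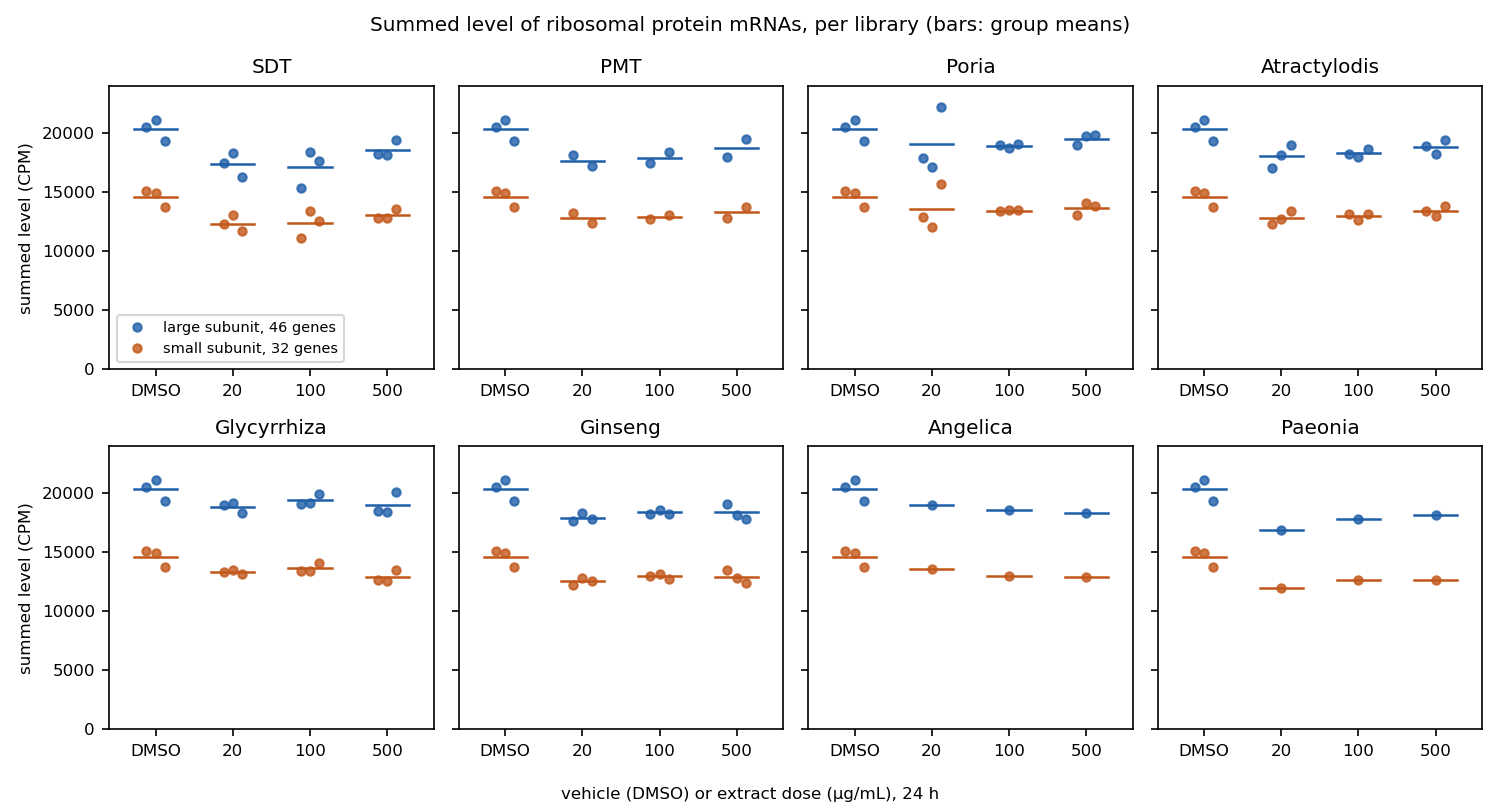
Summed level (CPM, TMM-scaled) of 46 large subunit and 32 small subunit genes, 1 point per library and a bar at each group mean, in vehicle (DMSO) and at 20, 100 and 500 µg/mL of each extract; the same 3 vehicle libraries are drawn in every panel. Most treated points lie below the vehicle points for both subunits at every dose, and library 3 of Poria at 20 µg/mL lies above them.

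Large and small subunit genes had similar differences from vehicle in their sums. The large subunit sum was 15360 to 22250 CPM in treated libraries (median 18360) and 19310 to 21140 CPM in vehicle libraries, with 49 of 57 treated libraries below all vehicle libraries. The small subunit sum was 11090 to 15660 CPM in treated libraries (median 13030) and 13740 to 15100 CPM in vehicle libraries, with 51 of 57 below. The ratio of the small to the large subunit sum was 0.673 to 0.731 in treated libraries (median 0.706) and 0.709 to 0.735 in vehicle libraries. This ratio was below all vehicle libraries in 36 of 57 treated libraries and above all of them in 0. Its 3 lowest values were the 3 Glycyrrhiza High libraries, at 0.685, 0.680 and 0.673, against 0.702, 0.704 and 0.715 in Glycyrrhiza Low. No test was made on these sums.

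Gene by gene, the lowest dose of each extract (20 µg/mL) was compared with vehicle, where an effect of treatment and an effect of the set cannot be told apart. Between 26 and 48 of the 78 members were lower and between 2 and 7 higher (edgeR quasi-likelihood test, adjusted p under 0.05 over 16284 genes). In SDT Low, 48 were lower and 5 higher (67.9% of members), where 35.9% of all tested genes were called, 17.6% lower and 18.3% higher. In PMT Low, 46 were lower and 7 higher, against 15% and 16.1% of all genes (31.1% in all), and without PMT Low replicate 3 there were 27 and 4. In Ginseng Low, 46 were lower and 4 higher, against 16.6% and 16.8% of all genes (33.4% in all). Atractylodis Low had 39 lower and 2 higher, against 13.1% and 13.7% of all genes (26.9% in all). Glycyrrhiza Low had 35 lower and 6 higher, against 14.5% and 15.2% of all genes (29.7% in all). Poria Low had 26 lower and 3 higher, against 9.32% and 9.9% of all genes (19.2% in all). Without library 3 of Poria Low 46 members were lower and 1 higher, and without vehicle library 2 15 were lower and 1 higher. The shares of all genes called with a library left out are not given here. With a trend on coding length taken out of each library, the counts were 23 lower and 7 higher in Poria Low, 31 and 7 in Atractylodis Low, 27 and 14 in Glycyrrhiza Low, and 36 and 8 in Ginseng Low. Of all genes tested under that setting, 23%, 28.9%, 32.5% and 35.7% were called in these extracts, both directions together. Counts for SDT Low and PMT Low under that setting are not given here. The median log2 fold change of members lay between -0.28 (SDT and PMT) and -0.13 (Poria), while that of all tested genes lay within 0.01 of 0. The comparisons share the 3 vehicle libraries and are not independent of each other.

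**Figure D2:**
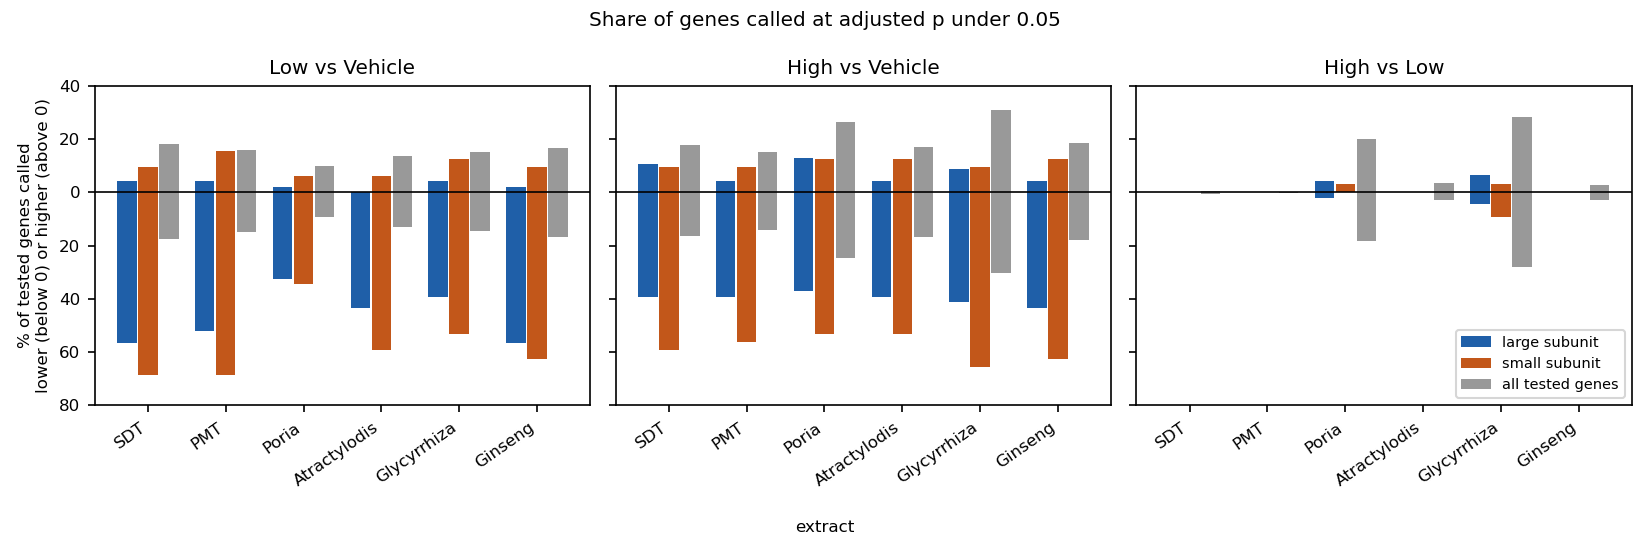
Percent of tested genes called lower (bars below 0) or higher (bars above 0) at adjusted p under 0.05 for large subunit genes (46), small subunit genes (32) and all 16284 tested genes, by extract, in 3 comparisons. Against vehicle the members' lower bars are longer than those of all genes in each extract and the higher bars are shorter for both subunits, and between High and Low the share of members called is below that of all genes in Poria and Glycyrrhiza.

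The member with the lowest log2 fold change in SDT, Atractylodis, Glycyrrhiza and Ginseng Low was RPS27A, which encodes a fusion of ubiquitin with a small subunit protein. It lies at chr2:55231903-55235853 on the plus strand of GRCh38. It had 189.9, 202 and 168 CPM in SDT Low and 177 and 163 CPM in PMT Low, against 339, 372 and 339.9 CPM in vehicle. Over all 57 treated libraries it ran from 161 CPM through a median of 193 to 268 CPM, and no treated library reached the lowest vehicle library. The log2 fold change was -0.90 ± 0.11 in SDT Low (SE; adjusted p = 2.4e-08), -1.04 ± 0.12 in PMT Low (adjusted p = 7.0e-08) and -0.66 ± 0.11 in Poria Low (adjusted p = 3.6e-05).

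The 3 stalk proteins, which recruit translation factors to the large subunit, were all lower. RPLP1 (chr15:69452784-69456194, plus strand) had 164, 186 and 164 CPM in SDT Low, against 259, 368 and 287 CPM in vehicle. All 57 treated libraries, from 131 to 246 CPM, lay below the lowest vehicle library. Its log2 fold change ran from -1.08 ± 0.15 in PMT Low (SE; adjusted p = 1.2e-06) to -0.66 ± 0.13 in Glycyrrhiza Low (adjusted p = 1.6e-04). RPLP2 fell by 0.55 on the log2 scale in SDT Low and by 0.38 in Poria Low. RPLP0, the protein that anchors RPLP1 and RPLP2, fell by 0.49 in SDT Low and by 0.26 in Poria Low. In all 3 genes the test was passed in each of the 6 Low groups.

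Among other small subunit genes, RPS12 (chr6:132814441-132817564) and RPS21 (chr20:62387116-62388520) had the next lowest values. RPS12 had 175, 177.5 and 152 CPM in SDT Low, against 279, 351 and 283 CPM in vehicle, and RPS21 had 91.3, 98.2 and 74.2 CPM against 169, 182 and 137 CPM. Neither gene overlapped between treated and vehicle libraries in any of the 57 treated libraries. RPS12 fell by 0.85 and RPS21 by 0.88 on the log2 scale in SDT Low (SE 0.13 and 0.14; adjusted p = 3.1e-06 and 3.4e-06). RPS14, which with other small subunit proteins forms the platform, fell by 0.56, and RPS19, the gene most often mutated in Diamond-Blackfan anaemia, fell by 0.44 in the same group. RPS6, the substrate of the S6 kinases, fell by 0.42 and RPS3, at the mRNA entry channel, by 0.30. In Poria Low the changes of RPS14 (-0.23), RPS19 (-0.18), RPS6 (-0.17) and RPS3 (-0.14) did not pass the test.

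In the large subunit, RPL9 (chr4:39452521-39458949, minus strand) had 179.6, 202.5 and 162 CPM in SDT Low, against 321, 328 and 282 CPM in vehicle. RPL39 (chrX:119786504-119791643, minus strand), a very small protein in the wall of the exit tunnel, had 136, 140.0 and 118 CPM in SDT Low, against 212, 215 and 205 CPM in vehicle. All 57 treated libraries of both genes lay below all vehicle libraries. RPL39 fell by 0.67 in SDT Low and by 0.45 in Poria Low, and RPL41, with 75 coding bases the shortest member, fell by 0.61 and by 0.43. The larger rRNA-binding proteins RPL3 and RPL4 differed less: RPL3 fell by 0.25 and RPL4 by 0.13 in SDT Low, while the values in Poria Low (-0.08 and -0.03) did not pass. RPL5 and RPL11 together bind MDM2 when ribosome assembly fails. RPL5 fell by 0.16 in SDT Low, and RPL11 at -0.07 did not pass the test. RPL10, which joins late in assembly, fell by 0.25 in SDT Low. RPL13A, RPL22, RPL11 and RPS4X passed the test in no Low group, with log2 fold changes between -0.15 and 0.17.

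A small set of members was higher than vehicle. RPS28 (chr19:8321158-8323340), a small subunit protein near the mRNA exit, had 617 and 619.5 CPM in PMT Low, against 435, 292 and 289 CPM in vehicle. The first vehicle library was far above the other 2, and 46 of 57 treated libraries lay above it. The log2 fold change of RPS28 was 0.88 ± 0.17 in PMT Low (SE; adjusted p = 1.1e-04) and 0.44 ± 0.16 in SDT Low (adjusted p = 0.022). RPS28 in SDT Low lost its call when vehicle library 2 or 3 or SDT Low library 2 was left out (adjusted p 0.138, 0.127 and 0.142). RPL28 (chr19:55385345-55403250), a large subunit protein, was above all vehicle libraries in 56 of 57 treated libraries, with 507, 513 and 536 CPM in SDT Low, against 416, 395 and 364 CPM in vehicle. RPL36A (chrX:101390824-101396154) was above them in 54. RPS26 rose by 0.29 ± 0.09 in SDT Low (SE; adjusted p = 0.012). All members called higher in a Low group had a coding sequence under 500 bases.

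At 500 µg/mL against vehicle, the members were again mostly lower. Glycyrrhiza High had 40 lower and 7 higher, where 61.3% of all tested genes were called, 30.2% lower and 31.1% higher. Ginseng High had 40 lower and 6 higher, against 17.8% and 18.5% of all genes (36.3% in all). SDT High had 37 lower and 8 higher, against 16.4% and 17.8% of all genes (34.2% in all), and PMT High 36 lower and 5 higher, against 13.9% and 15.3% (29.2% in all). Atractylodis High had 35 lower and 6 higher, against 16.7% and 17.3% of all genes (34% in all), and Poria High 34 lower and 10 higher, against 24.8% and 26.3% (51.1% in all). With a trend on coding length taken out, the counts were 31 lower and 15 higher in Glycyrrhiza High, 34 and 13 in Ginseng High, 30 and 15 in SDT High, 31 and 12 in PMT High, 30 and 13 in Atractylodis High, and 31 and 23 in Poria High. Of the 12910 genes tested under that setting, 68.1%, 40%, 38.5%, 34.9%, 37.9% and 57.4% were called in the same order of extracts, which in Glycyrrhiza High is a larger share than the 46 of 78 members. In Glycyrrhiza High the share of members called, 60.3%, was close to that of all genes. PMT High rests on 2 libraries per dose, and without its replicate 2 the count was 12 lower and 3 higher. RPS27A was the lowest called member in SDT, PMT, Glycyrrhiza and Ginseng High, with -0.88 ± 0.11 in Glycyrrhiza High (SE; adjusted p = 1.3e-09). In Poria High the lowest was RPS29, at 19.9, 22.3 and 20.3 CPM, against 30.9, 49.7 and 34.1 CPM in vehicle, a log2 fold change of -0.87 ± 0.12 (SE; adjusted p = 1.0e-07). The highest called members there were RPS28 at 0.68 and RPL36A at 0.64 on the log2 scale.

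**Figure D3:**
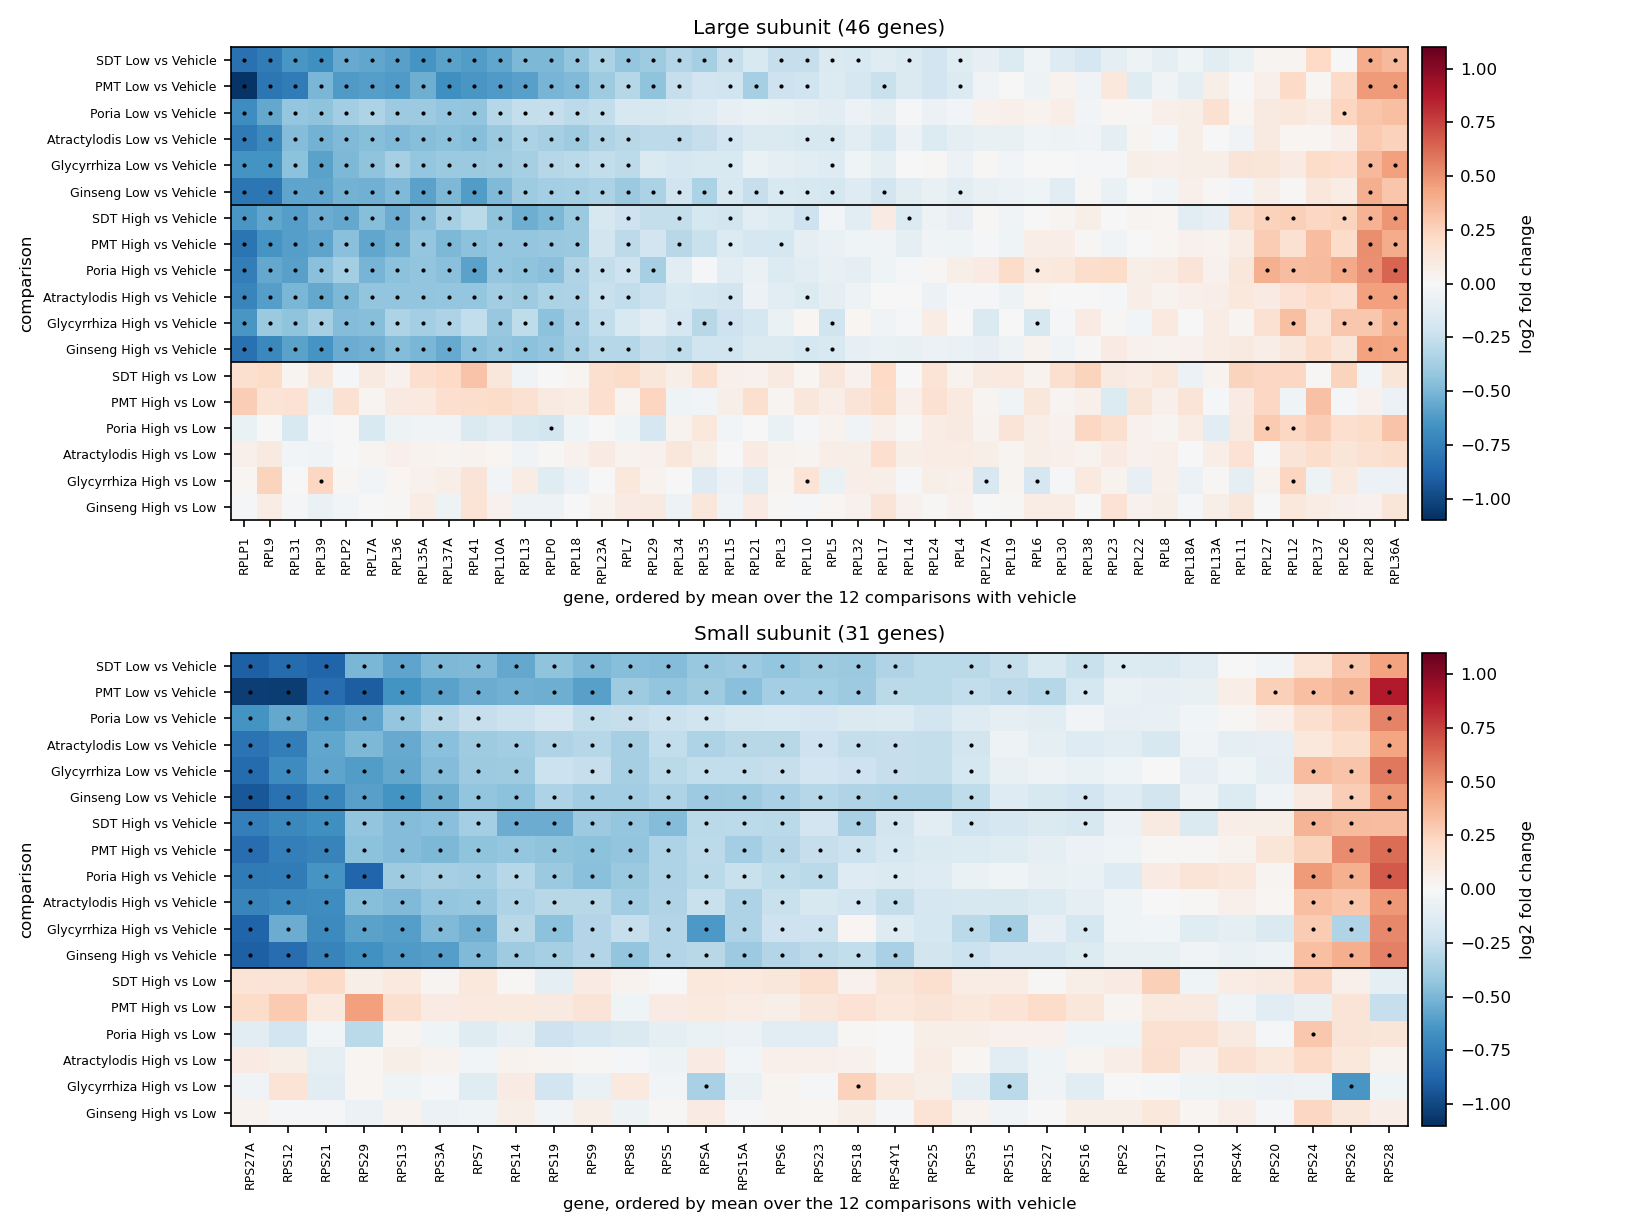
Log2 fold change (colour, blue lower and red higher) of 46 large subunit and 31 small subunit genes in 18 comparisons, with a black dot where adjusted p was under 0.05; genes are ordered by their mean over the 12 comparisons with vehicle, which share the same 3 vehicle libraries. RPLP1 is at the low end and RPL36A at the high end of the large subunit, RPS27A and RPS28 are at those ends of the small subunit, and few dots appear in the High against Low rows.

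Against all single libraries, 14 of the 78 members (17.9%) were below the lowest vehicle library in all 57 treated libraries, where 3.70% of all tested genes were. Besides RPS27A, RPS12, RPS21, RPL9, RPL39, RPLP1 and RPLP2 these were RPS7, RPS13, RPSA, RPS4Y1, RPL7A, RPL10A and RPL36, of which RPS7, RPS13, RPS4Y1, RPL7A, RPL10A and RPL36 are named because their values were seen. No member lay above the highest vehicle library in all 57, where 2.52% of all genes did. At least 50 treated libraries lay below vehicle for 40 members (51.3%) and for 14.0% of all genes.

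Small subunit genes had the lower median in each comparison of Low with vehicle, a difference that was not tested. In SDT Low the median log2 fold change was -0.39 for the small subunit, with 22 of 32 genes lower and 3 higher, and -0.20 for the large subunit, with 26 of 46 lower and 2 higher. In PMT Low, 22 of 32 small subunit genes were lower and 5 higher, and 24 of 46 large subunit genes were lower and 2 higher. In Poria Low, 11 of 32 small subunit genes were lower and 2 higher, and 15 of 46 large subunit genes were lower and 1 higher, with medians of -0.17 and -0.08. At both ends of the range the subunits were mixed.

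Coding length, GC content and reads shared with other copies were compared with the members' changes. The tested members had coding lengths of 75 to 1281 bases. Among other protein-coding genes, shorter genes had the lower median against vehicle in each of the 6 replicated extracts: in SDT Low the median log2 fold change was -0.14 over 1138 genes with under 500 coding bases, of which 34.7% were called lower, and 0.20 over 892 genes with 4000 or more, of which 3.36% were. The 47 members under 500 bases had a median of -0.26 in SDT Low and the 29 members of 500 to 1000 bases a median of -0.33, against -0.08 for the 2924 other genes of that length. Within the members the rank correlation of change with length was weak, with a Spearman rho of 0.06 over 78 genes in SDT Low against 0.31 over 12829 other genes. For GC content rho was -0.07 among members and -0.25 among other genes. These are descriptions across genes of the same libraries. With a trend of the change on transcript length taken out of each library, SDT Low had 43 members lower and 6 higher, with 33.1% of all genes called, and Glycyrrhiza Low 28 lower and 13 higher, with 27.5% of all genes called. With a trend on GC content taken out, SDT Low had 45 lower and 4 higher, with 35.8% of all genes called.

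**Figure D4:**
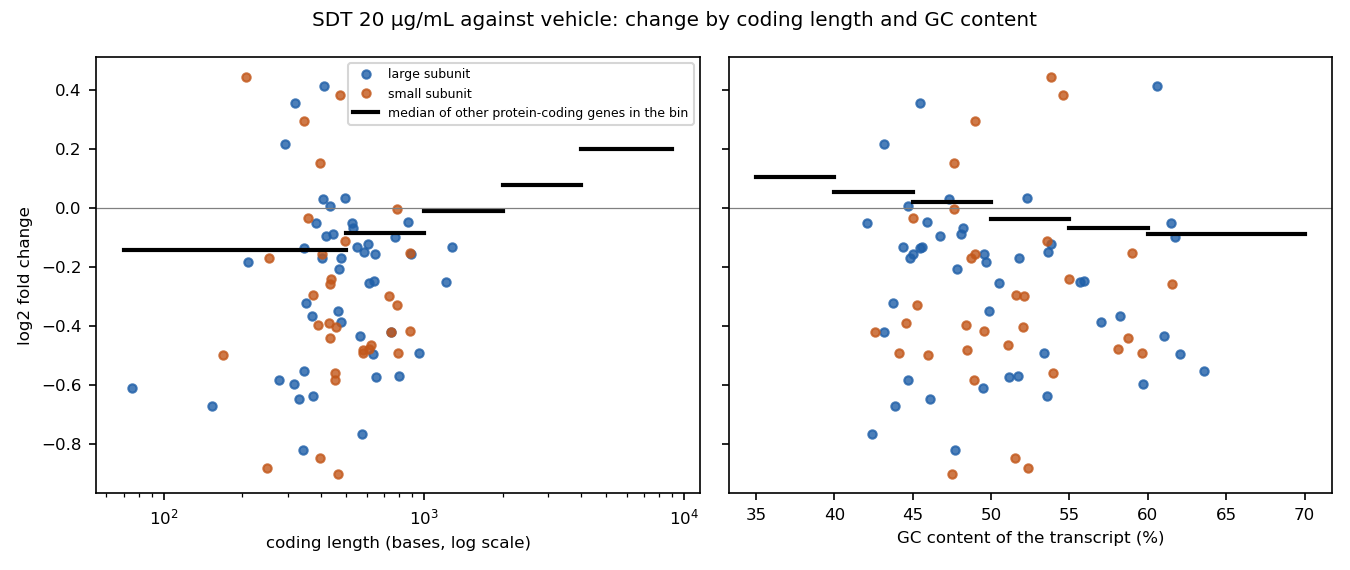
Log2 fold change in SDT 20 µg/mL against vehicle of 78 ribosomal protein genes (points, by subunit) by coding length in bases on a log axis and by GC content of the transcript in percent; black lines are medians of other protein-coding genes in bins, the outer bins being open-ended and drawn to the edge of the data. Most points lie below the line for genes of like length, and RPS28 and RPL28 are the highest points.

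Ribosomal protein genes have many processed pseudogenes, between which expected counts may be split. The table held 1586 pseudogenes named after 77 of the 78 members, of which 802 had any count. Their share of the summed count of gene and pseudogenes had a median over members of 0.11% in treated libraries and 0.105% in vehicle libraries. It was largest for RPL23A, at 42.9% in treated libraries and 35.5% in vehicle libraries, and for RPL36A, at 22.6% and 20.2%. Adding the pseudogenes to each gene moved the log2 ratio of the treated median to the vehicle mean by 0.12 for RPL23A, by 0.04 for RPL36A and by less for the other members, and no sign changed. The values of RPL23A and RPL36A are uncertain for this reason.

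Dose within an extract was compared because High and Low share a set code. In SDT, PMT, Atractylodis and Ginseng, no member passed the test between 500 and 20 µg/mL, where 1.04%, 0.516%, 6.41% and 5.79% of all tested genes did. In these extracts 0.522%, 0.197%, 3.39% and 2.92% of all genes were higher, and 0.522%, 0.319%, 3.02% and 2.87% lower. At an unadjusted p under 0.05 there were 15, 4, 2 and 1 members in these extracts, and DESeq2 called 0 in each of them. Without SDT High replicate 2, 1 member was called in SDT. The median log2 fold change of members was 0.10, 0.11, 0.05 and 0.04, with single values from -0.26 to 0.45, and a missed threshold does not show that values did not differ. Of the 78 members, 70 (SDT), 63 (PMT), 64 (Atractylodis) and 53 (Ginseng) had a value above 0, and 8, 15, 14 and 25 a value below 0. Of all 16284 tested genes, 8210, 8199, 7991 and 8274 were above 0 in the same order. These counts were not tested.

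Poria and Glycyrrhiza changed many genes between High and Low, but few members. In Poria, 3 members were higher and 1 lower (5.13% of members), where 38.4% of all tested genes were called, 20% higher and 18.4% lower. RPS24 had 861, 1177 and 855 CPM in Poria High, against 719, 688 and 954 CPM in Poria Low, with overlapping groups and a log2 fold change of 0.29 ± 0.11 (SE; adjusted p = 0.034). RPL27 rose by 0.29 ± 0.10 (adjusted p = 0.021) and RPL12, at the base of the stalk, by 0.23 ± 0.08 (adjusted p = 0.031). RPLP0 had 673, 656 and 747 CPM in Poria High, against 722, 714 and 946 CPM in Poria Low, and fell by 0.20 ± 0.08 (SE; adjusted p = 0.041). Library 3 of Poria Low is the highest of its group in all 4 genes. Without it, 19 members were higher and 0 lower. Without library 2 of Poria Low 0 were higher and 8 lower, and without library 2 of Poria High 2 were higher and 0 lower. The shares of all genes called in these refits are not given here. Each of the 4 genes lost its call when some single libraries were left out.

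In Glycyrrhiza, 5 members were lower and 4 higher between High and Low (11.5% of members), where 56.3% of all tested genes were called, 27.8% lower and 28.4% higher. The lowest value was that of RPS26 (chr12:56041351-56044697, plus strand), whose protein contacts the mRNA upstream of the start codon and which is another gene of Diamond-Blackfan anaemia. It had 189, 189 and 172 CPM in Glycyrrhiza High, against 275, 286 and 298 CPM in Glycyrrhiza Low. All 3 High libraries lay below every other library of the series, vehicle included (249, 235 and 210.4 CPM). The log2 fold change was -0.64 ± 0.10 (SE; adjusted p = 1.3e-07), between -0.65 and -0.61 under 9 other settings, and between -0.68 and -0.60 with each library left out in turn. In the other extracts RPS26 had High against Low values of 0.05 (SDT), 0.14 (PMT), 0.14 (Poria), 0.11 (Atractylodis) and 0.13 (Ginseng), none of which passed the test. Against vehicle RPS26 fell by 0.33 in Glycyrrhiza High (adjusted p = 0.0026, and 0.093 with a coding length trend taken out), while it rose by 0.30 to 0.52 in the High group of the other 5 extracts.

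RPSA (chr3:39406689-39412542, plus strand), a small subunit protein also known as the laminin receptor, had 402, 398 and 451 CPM in Glycyrrhiza High, against 539, 547 and 515 CPM in Glycyrrhiza Low and 614, 661 and 668 CPM in vehicle. The High and Low groups did not overlap, and the log2 fold change was -0.36 ± 0.06 (SE; adjusted p = 1.0e-06). RPS15, a small subunit protein, had 169.9, 169 and 165 CPM in Glycyrrhiza High, against 209, 199 and 209 CPM in Glycyrrhiza Low, and fell by 0.30 ± 0.09 (SE; adjusted p = 0.0057). RPS18, a protein of the small subunit head, went the other way, with 564, 626 and 602 CPM in Glycyrrhiza High, against 515, 495 and 492 CPM in Glycyrrhiza Low, and rose by 0.25 ± 0.07 (SE; adjusted p = 0.0019). Its High values overlapped with the vehicle libraries (600.4, 591 and 578 CPM). RPL12 rose by 0.24, RPL39 by 0.22 and RPL10 by 0.15, and RPL6 fell by 0.18 and RPL27A by 0.17; RPL6 and RPL27A are named because only 9 members were called. RPL12 and RPL39 lost the call without Glycyrrhiza Low library 1 or Glycyrrhiza High library 3, and RPL39 also without Glycyrrhiza Low library 3 (highest adjusted p 0.0545 and 0.301).

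The dose change differed between Glycyrrhiza and Poria in 5 members (6.41%), where 45.6% of all tested genes differed, 23.8% with a lower and 21.8% with a higher value in Glycyrrhiza. RPS26 had a difference of -0.78 ± 0.13 in log2 fold change (Glycyrrhiza minus Poria, SE; adjusted p = 4.3e-06), and it passed under every setting tried. RPSA differed by -0.29 ± 0.08 (adjusted p = 0.0042) and passed under every setting. RPS15 (-0.35 ± 0.13, adjusted p = 0.028) and RPS18 (0.24 ± 0.10, adjusted p = 0.043) lost the call under 7 and 8 of 21 settings. Without library 3 of Poria Low, 16 members differed, all lower in Glycyrrhiza, and without library 3 of Glycyrrhiza Low 3 members differed.

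**Figure D5:**
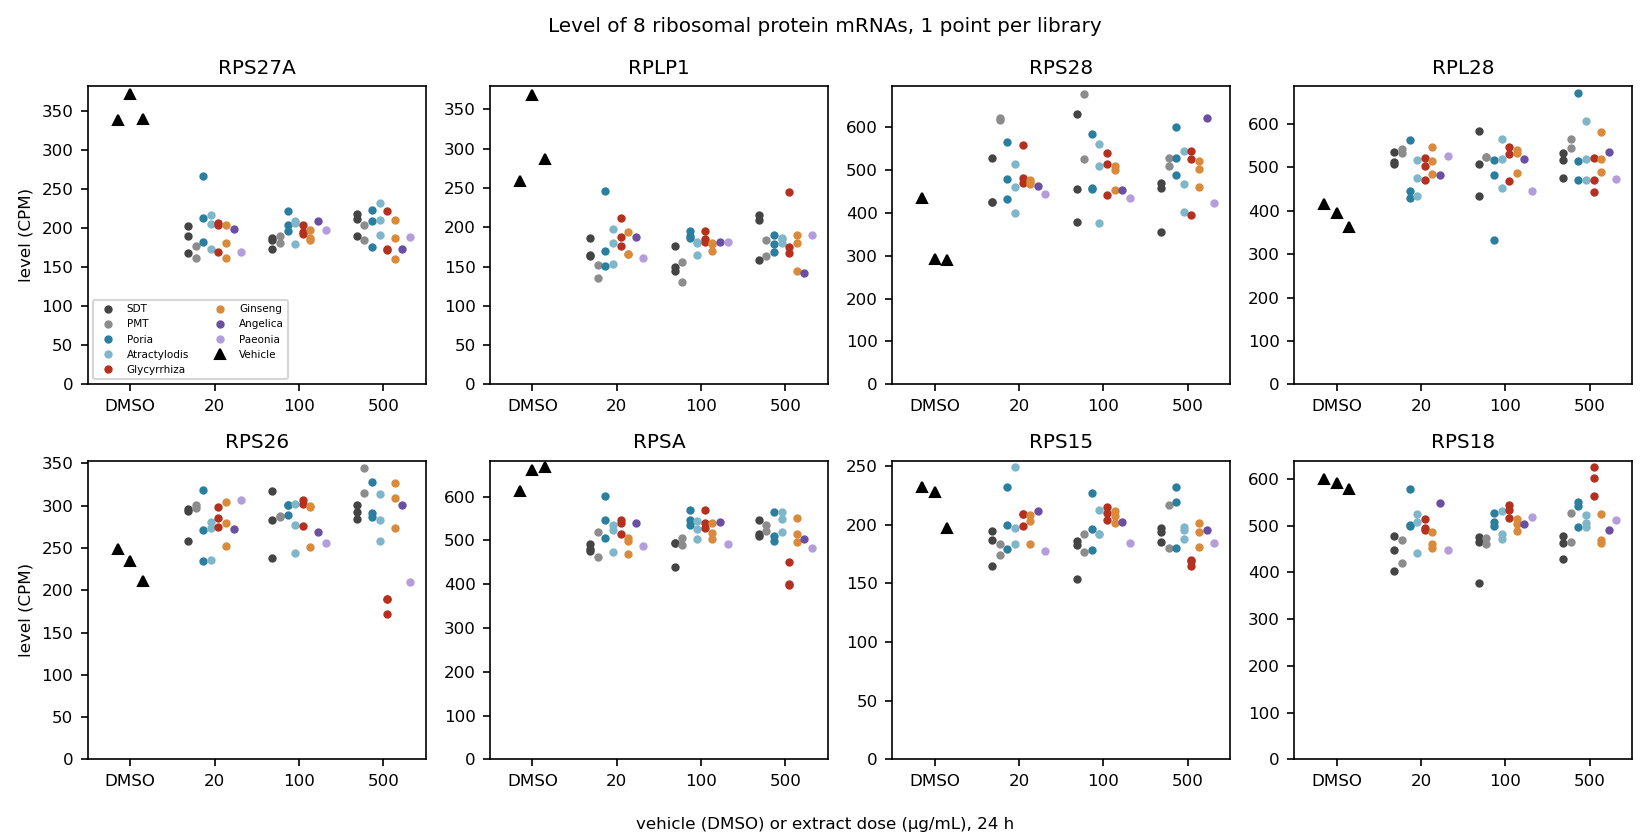
Level (CPM, TMM-scaled, axes from 0) of 8 members in vehicle (triangles, DMSO) and at 20, 100 and 500 µg/mL of 8 extracts (points, 1 per library). RPS27A and RPLP1 lie below vehicle at every dose and RPL28 above it in 56 of 57 treated libraries, while RPS26 and RPSA are low in the 3 Glycyrrhiza libraries at 500 µg/mL.

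Beside these changes, markers of cell identity were called in Glycyrrhiza High against Low, where 27.8% of all tested genes were lower and 28.4% higher (56.3% in all). Of 13 hepatocyte and hepatoma markers, 10 were lower and 2 higher than in Glycyrrhiza Low, and the tested markers summed to 51580, 53400 and 50820 CPM in High, against 66530, 67390 and 66400 CPM in Low. The 2 tested fibroblast markers were lower, at very low sums of 2.45 to 2.89 CPM in High and 6.13 to 6.67 CPM in Low. Of 4 tested leukocyte and endothelial markers 2 were lower, a share called no larger than that of all genes. They summed to 891, 821 and 901 CPM in High, against 1278, 1306 and 1201 CPM in Low. The part of these shifts in the members' values was not tested.

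Other genes of ribosome production were followed through lists chosen with earlier results of these data known. Between Glycyrrhiza High and Low 27.8% of all tested genes were lower and 28.4% higher (56.3% in all), and between Poria High and Low 18.4% were lower and 20% higher. Between Glycyrrhiza High and Low, 22 of 40 ribosome assembly factors were lower and 6 higher, with a median log2 fold change of -0.17. UTP20, which processes small subunit rRNA, fell by 0.61 ± 0.05 (SE) and the nucleolar methyltransferase FBL by 0.60 ± 0.07. Of 15 RNA polymerase I genes 8 were lower and 2 higher, with the subunit POLR1G at -1.02 ± 0.07 and the factor UBTF at -0.58 ± 0.05. Of 16 regulators of TOP mRNA translation, 8 were higher and 1 lower, a share called no larger than that of all genes; SESN2, an inhibitor of mTORC1, rose by 1.37 ± 0.07 and EIF4EBP1, a translational repressor, by 1.08 ± 0.07. In Poria, 25 of 40 assembly factors were higher and 0 lower between High and Low, with a median of 0.20; GAR1 rose by 0.55 ± 0.08 and UTP14A by 0.51 ± 0.06. There 6 of 15 RNA polymerase I genes were higher and 0 lower. The medians of the ribosomal protein genes in these comparisons were -0.02 in Glycyrrhiza and -0.00204 in Poria.

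The same lists were read in SDT Low against vehicle, where 17.6% of all tested genes were lower and 18.3% higher. There 41 of 78 mitochondrial ribosomal protein genes were lower and 4 higher, with MRPS12 at -0.70 and MRPS26 at -0.64 on the log2 scale. Of 42 nuclear-encoded oxidative phosphorylation genes, 25 were lower and 1 higher, with NDUFA1 at -0.93 and UQCRQ at -0.90. Of 14 tested host genes of small nucleolar RNAs, 11 were lower and 1 higher, with SNHG8 at -0.86 and SNHG5 at -0.73. Of 22 other tested mRNAs with a TOP motif, 9 were lower and 2 higher, with a median of -0.09. FAU, which encodes a small subunit protein fused to a ubiquitin-like protein, fell by 0.55 ± 0.09 (SE), and PABPC1, the poly(A) binding protein, rose by 0.46 ± 0.06. Of 13 mitochondrially encoded genes, 11 were higher and 0 lower, with a median of 0.59. Their part in the members' share of counts was not tested.

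Of 6 tested paralogs outside the rule, 1 was higher and 2 lower between Glycyrrhiza High and Low. In Poria 3 were higher and 2 lower. Of all genes 28.4% were higher and 27.8% lower in Glycyrrhiza, and 20% and 18.4% in Poria. Against vehicle at Low, 0 were called higher in any extract. There 4 (SDT), 3 (PMT), 1 (Poria), 4 (Atractylodis), 2 (Glycyrrhiza) and 4 (Ginseng) were lower. Of all genes 17.6%, 15%, 9.32%, 13.1%, 14.5% and 16.6% were lower in the same order. RPL22L1, the paralog of RPL22, fell by 0.51 ± 0.10 in SDT Low against vehicle (SE) and rose by 0.66 ± 0.10 in Glycyrrhiza High and by 0.43 ± 0.10 in Poria High against the Low group of the same extract. RPL26L1 fell by 0.56 ± 0.11 in SDT Low. RPL3L, a muscle paralog of RPL3 with at most 1.57 CPM in any library, fell by 1.08 ± 0.27 in Glycyrrhiza High against Low. RPS27L, a p53 target, fell by 0.62 ± 0.07 in Glycyrrhiza High against Low, and is named because its values were seen.

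Among the 4 remaining genes of the rule, RPS19BP1 had a median of 21.9 CPM and fell by 0.40 ± 0.09 in Glycyrrhiza High against Low (SE; adjusted p = 3.5e-04). RPS10-NUDT3 rose by 1.84 ± 0.69 there (adjusted p = 0.021), at a median of 1.36 CPM over all libraries and with 0 in some, and its reads overlap RPS10. RPL17-C18orf32 had a median of 2.08 CPM and passed the test in no comparison, and RPL36A-HNRNPH2 did not pass the filter on low counts.

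Angelica and Paeonia have 1 library per dose and no replicate check, so no test was made. The median log2 ratio of the 78 members to the vehicle mean was -0.12, -0.19 and -0.21 in Angelica at 20, 100 and 500 µg/mL, and -0.34, -0.24 and -0.25 in Paeonia at the same doses. The number of members below the vehicle mean was 58, 62 and 62 in Angelica and 69, 69 and 68 in Paeonia. RPS26 in Paeonia at 500 µg/mL was 210.0 CPM, the lowest treated value outside Glycyrrhiza High.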

How the data were processed

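Per the labels' protocols, directional mRNA libraries were read as 100 bp pairs. Per the submitters' processing notes, FastQC 0.11.9, Trim Galore 0.6.5, STAR 2.7.3a and RSEM 1.3.3 were used with GRCh38. The authors deposited gene-level expected counts, not normalised; 23.4% of nonzero values are not whole within 0.005. Annotation release and strand setting are not given in the sources used here. Of 270 sample columns, 60 were used and 210 were not.

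Expected counts were rounded, filtered with filterByExpr, scaled by TMM and fitted with edgeR 4.0.16 in R 4.3.3 with 1 coefficient for each of 19 groups over 54 libraries. Adjusted p-values, called under 0.05, come from its quasi-likelihood F-test, corrected over 16284 genes by Benjamini-Hochberg, and fold changes are log2 with their SE. The between-library coefficient of variation was 5.63%. Coordinates and lengths are from GENCODE release 29 and start-site windows from RefSeq. The named genes were 21 fixed members, the 3 highest and 3 lowest called members per comparison, and up to 2 called genes per list. The members and lists were chosen with earlier results of these data known. Tested on simulated data for Glycyrrhiza High against Low over 15923 genes, the fit called 44% of genes changed by 0.3 on the log2 scale, 98% of those changed by 0.6 and 0.0636% of unchanged genes. Only 200 genes were changed in the simulation, whereas 56.3% of tested genes were called in the data. These rates therefore do not carry over to the real comparison. Alternatives were DESeq2 1.42.0, its size factors, no filter, only the groups compared, replicate blocks, and length and GC trends, the trends on GC content and coding length having been chosen after seeing the data, and leaving out each library in turn. 1 tested small subunit gene enters all counts and sums but is not reported by itself here.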

Additional observations from a re-analysis of the deposited data

Results flagged for a closer look

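The dose change (High against Low) of 5 members differed between Glycyrrhiza and Poria in the test of the difference itself (edgeR, Glycyrrhiza minus Poria, log2 scale). RPS26 had the difference of -0.782, with 189, 189 and 172 CPM in Glycyrrhiza High against 275, 286 and 298 CPM in Glycyrrhiza Low, and 328, 287 and 292 CPM in Poria High against 271, 234 and 318 CPM in Poria Low. RPS15 had a difference of -0.346, RPSA of -0.286 and RPL6 of -0.256, while RPS18 had a difference of 0.242. RPL6 had 494, 498 and 501 CPM in Glycyrrhiza High, against 573, 559 and 557 CPM in Glycyrrhiza Low, and 609, 615 and 599 CPM in Poria High, against 563, 542 and 626 CPM in Poria Low.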

How the results depend on the processing

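Counts of called members moved by over 1.5 times in these cases. The direction of the Poria High against Low calls turned with single libraries: 3 members were higher and 1 lower with all libraries, 19 and 0 without Poria Low library 3, and 0 and 8 without Poria Low library 2. With no filter on low counts the High against Low counts were 13 (SDT), 7 (PMT), 25 (Poria), 5 (Atractylodis), 16 (Glycyrrhiza) and 1 (Ginseng), Poria Low against vehicle had 44, and Glycyrrhiza minus Poria 23. Fitting only the groups compared gave 1 (SDT), 0 (Poria), 17 (Glycyrrhiza) and 1 (Ginseng) for High against Low and 11 for Poria Low against vehicle. A trend on transcript length taken out gave 13 (Poria), 1 (Atractylodis) and 14 (Glycyrrhiza) for High against Low and 16 for Glycyrrhiza minus Poria, and a trend on coding length, chosen after seeing the data, gave 13, 15 and 15 for Poria, Glycyrrhiza and their difference. The cause was not tested. As a share of nuclear counts, the log2 ratio of the summed level to vehicle was -0.160 in Poria Medium, -0.179 in Poria High, -0.148 in Glycyrrhiza Low, -0.184 in Ginseng Medium, -0.129, -0.167 and -0.183 in Angelica and -0.310, -0.213 and -0.242 in Paeonia (Low, Medium and High). In TMM-scaled CPM the ratios were -0.109, -0.0731, -0.120, -0.158, then -0.103, -0.146 and -0.163, and -0.277, -0.196 and -0.182, in the same order. Glycyrrhiza High went the other way, with -0.130 in CPM and -0.0966 as a share of nuclear counts. Other groups are not listed here.

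Same-numbered correlations ran from -0.085 to 0.137, and were 0.137, 0.126 and 0.076 in Atractylodis, so some pairing by replicate number remains possible. In Poria and Atractylodis, a list of p53 response genes summed to between 897 and 925 CPM in replicate 1 libraries. Replicates 2 and 3 of these extracts had between 781 and 837 CPM. The main fit has no term for replicate. With the replicate block SDT Low against vehicle had 53 called members and Glycyrrhiza High against Low 9; with the replicate block within set code, Glycyrrhiza had 14 and Glycyrrhiza minus Poria 11. The replicate block, DESeq2, its size factors and the GC trend moved no count by over 1.5 times apart from these.

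With each library left out in turn, counts ranged from 0 to 1 (SDT), 2 to 19 (Poria) and 7 to 9 (Glycyrrhiza) and were 0 in PMT, Atractylodis and Ginseng for High against Low. Against vehicle they ranged at Low from 44 to 53 (SDT), 31 to 51 (PMT), 16 to 47 (Poria), 29 to 43 (Atractylodis), 31 to 39 (Glycyrrhiza) and 42 to 49 (Ginseng), and at High from 35 to 44, 15 to 40, 38 to 47, 32 to 41, 39 to 48 and 41 to 47 in the same order. Glycyrrhiza minus Poria ranged from 3 to 16. Counts in this section are of members only, and the shares of all genes called in the same refits are not given. A shift of members apart from that of all genes cannot be read from them. Groups of 2 or 3 libraries limit the precision, and all comparisons with vehicle rest on 3 vehicle libraries.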
